A study of Homo sapiens with 4 samples.

Results

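The regions described here are the antisense strands of 1164 genes whose 3′ ends face the 3′ end of an active neighbour on the other strand. They were chosen from 47490 antisense entries by a rule. The gene overlapped no other gene on either strand, and at most 10 kb separated its end from that of a gene on the other strand with a mean isotonic RPKM of at least 0.5. RPKM, as the authors deposited it, scales reads by gene length and library. The facing gene is called the partner, and the 1164 regions faced 1094 different partners, 960 of them protein-coding. In all, 127 regions shared a partner with another region, and 126 formed 63 reciprocal pairs in which each gene faced the other. The partner's isotonic level chose the regions, so partner levels are given as description only. The rule does not use the antisense reads of the regions themselves, but it was drawn up with earlier results of these data known.

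The study measured newly made RNA by Bru-seq in U2OS cells, a human osteosarcoma line, which stably overexpressed GFP-DCP1a, a fluorescently tagged cofactor of mRNA decapping. Bromouridine at 2 mM was present for 30 min before RNA was collected without a chase, so reads report transcription during the labelling. Of the 4 libraries, 2 came from hypertonic medium with 300 mM sodium and 2 from isotonic medium with 150 mM sodium. The labels do not say whether replicates were separate cultures, so p-values reflect the spread between these 4 libraries alone, and that spread may be technical. They also give no length of the hypertonic exposure. In bulk libraries, more RNA per cell and more cells making it cannot be told apart.

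RNA polymerase II normally ends a protein-coding transcript after passing the poly(A) signal, most often the hexamer AATAAA in the RNA's last stretch. The cleavage and polyadenylation machinery cuts the RNA there, and the polymerase is released some distance downstream. Where it is not released, it goes on into downstream DNA. Where 2 genes lie tail to tail, polymerases that run past the end of one gene enter the other gene on its antisense strand. Osmotic stress, heat shock and viral infection are known to increase such transcription downstream of gene ends in human cells. The antisense entry of a tail-to-tail gene covers DNA past the partner's end and does not mix with the gene's own sense reads. Antisense transcription of any other origin would be counted there too, and the source of the reads was not tested.

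The poly(A) signals at the ends of some partners are shown because these are the ends that the antisense reads lie beyond. Each line gives up to 30 bases of the partner strand, 5′ to 3′, taken from GENCODE release 29 transcripts on GRCh38, with the hexamer in capitals.
RCC2: acattttaAATAAAcaacaacattgtctac
HSPA4: actaataaAATAAAcctgtcttaaacttga
AHSA1: atatgctaAATAAAcataatttaaaaaaca
SRSF5: tgttattgatAATAAAatattataaaacta
NCL: gataaggaATTAAAagctcagttaattgaa
The stretches lie at chr1:17406764-17406793 on the minus strand (RCC2), chr5:133106419-133106448 on the plus strand (HSPA4), chr14:77469443-77469472 on the plus strand (AHSA1), chr14:69771976-69772005 on the plus strand (SRSF5) and chr2:231453536-231453565 on the minus strand (NCL). The hexamer ended 14 to 21 bases before the annotated transcript end in these 5 genes. AATAAA was present in the last 50 bases, on the transcript strand only, of 60.0% of the 1094 partners, and ATTAAA without AATAAA in a further 12.2%. Among all 19744 protein-coding genes the shares were 58.5% and 13.1%, next to 63.3% and 13.1% of the 960 protein-coding partners.

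Antisense reads of the regions were more abundant in both hypertonic libraries. The summed density over all 1164 regions, with no filter on low values, was 0.541 and 0.267 CPM per kb in hypertonic libraries 1 and 2 and 0.148 and 0.159 in isotonic libraries 1 and 2. CPM is the number of reads after each library is scaled to 1000000 effective reads, with trimmed mean of M-values (TMM) factors computed from the sense entries. The group means were 0.404 ± 0.194 and 0.153 ± 0.00787 (SD, n = 2 each), a 2.64-fold difference. Hypertonic library 1 stood 3.53 times and library 2 1.74 times above the isotonic mean, so the groups did not overlap and the hypertonic libraries differed widely from each other. With factors computed from the antisense entries instead, which centres those entries near 0 by construction, the log2 ratio of the sums was 0.063. This sum gives long genes the most weight. The median density per region was 0.510 and 0.384 in the hypertonic libraries and 0.111 and 0.121 in the isotonic ones. Of the 1147 regions with any read, 1044 (91.0%) had a higher hypertonic mean and 103 a higher isotonic mean. The same share was 82.0% among the 27372 antisense entries of the whole series with reads.

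**Figure D1:**
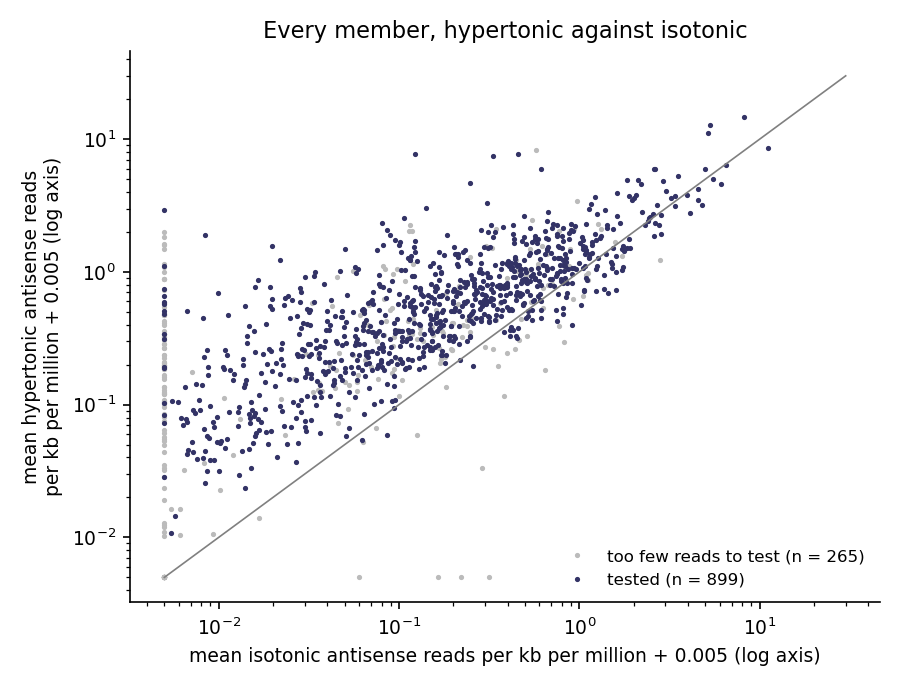
Mean antisense density of every region in the 2 hypertonic libraries (y axis) against the mean in the 2 isotonic libraries (x axis), in CPM per kb plus 0.005 on log axes; dark points were tested and grey points had too few reads. Most points lie above the line of equal density, and the distance from it is largest where the isotonic density is low.

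In all, 899 regions had a mean count of at least 10 over the 4 libraries and were tested together with every other sense and antisense entry that passed. None passed the threshold in edgeR after adjustment over 31889 entries, with a lowest adjusted p of 0.0995, and the share of all entries called was 0% too. Unadjusted p-values under 0.05 were found for 420 regions, all of them higher in the hypertonic libraries, or 46.7% of those tested, next to 34.6% of all antisense entries and 17.0% of all entries. Lower levels at such a p were found for 0 regions, next to 0.0687% of antisense entries and 1.18% of all entries. The antisense entries used for comparison include those of genes that overlap another gene, which the rule left out. Among tested non-overlapping genes outside the regions, 56.5% were higher at such a p where the nearest active end lay 10 to 50 kb away. The share was 48.8% in genes facing an inactive end and 18.2% with no active end within 50 kb. DESeq2 called 269 regions higher and 0 lower on the same entries (29.9%, next to 18.0% of antisense entries and 8.55% of all entries called higher, and 0.00981% and 0.132% called lower), and limma-voom called 0. The fitted log2 fold change was positive in 825 regions and negative in 74, with a median of 1.60 and quartiles of 0.80 and 2.88. Of the 899 regions, 187 had an isotonic mean count under 10 and so passed the filter through the hypertonic libraries. The median was 1.37 over all 10194 antisense entries tested and 0.05 over 21695 sense entries. Both hypertonic libraries lay above both isotonic ones in 632 regions (70.3%, next to 62.0% of antisense entries and 34.9% of all entries) and below them in 13 (next to 1.79% and 12.4%). With factors from the antisense entries the median was 0.32, next to 0.10 over all antisense entries. In that setting 179 regions were higher at an unadjusted p under 0.05 and 330 had both hypertonic libraries above. Shares over all antisense entries were not computed for that setting, so these 2 counts have no background beside them. In hypertonic library 1, 787 regions stood above the isotonic mean, and in library 2, 767 did. Without isotonic library 1 or 2 the regions with an unadjusted p under 0.05 numbered 195 and 219. Without hypertonic library 1 or 2 the median log2 fold change was 1.22 and 1.82.

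Of the 10 regions with the smallest p-values, the 9 described here were nearly silent in isotonic medium, and each had an adjusted p of 0.0995 in edgeR. PADI6, which encodes a peptidylarginine deiminase of the oocyte, spans chromosome 1, 17372196 to 17401699 (GRCh38, here and below), on the plus strand. Its antisense strand held 15.1 and 2.98 CPM in the hypertonic libraries and 0 in both isotonic ones. Against a floor of 3 reads over both isotonic libraries it was at least 184-fold higher. Its partner RCC2, a regulator of chromosome condensation and cell migration, ended 5060 bases away. PADI6 had almost no sense reads, with 0.0363 CPM in hypertonic library 2 and 0 in the others. On the antisense strand hypertonic library 1 was the higher one, and the groups did not overlap.

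AC113410.2, a long noncoding RNA gene at chromosome 5, 133111055 to 133114475, lies 4605 bases past the end of HSPA4, a chaperone of the HSP110 family. It measured 5.94 and 7.02 CPM antisense in the hypertonic libraries and 0.0231 and 0 in the isotonic ones. With 1 isotonic read in all, the ratio was 415, with a 95% counting interval of 74.0 to 16442 (exact Clopper-Pearson, counting error only). ISM2 (chromosome 14, 77474397 to 77498850) faces AHSA1, which stimulates the ATPase of HSP90, across 4922 bases. It measured 2.41 and 2.34 CPM in the hypertonic libraries and 0 in both isotonic ones, at least 50.3-fold higher. On the sense strand, both partners were below the isotonic libraries in hypertonic library 1 and above them in library 2. HSPA4 stood at 2.16 and 7.47 CPM per kb against 4.32 and 5.41, and AHSA1 at 3.02 and 8.09 against 4.78 and 4.98. Both partners overlap another gene on their own strand.

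The remaining regions of this group lie beside genes of varied function. ZNF285B, a zinc finger pseudogene at chromosome 19, 44467641 to 44473227, faces the zinc finger gene ZNF180. It measured 12.3 and 4.98 CPM antisense against 0.116 and 0.0488, a log2 fold change of 6.53 ± 0.97. BNIPL (chromosome 1, 151036570 to 151047600) faces CDC42SE1, a CDC42 effector, with another gene between the ends. It measured 16.2 and 10.8 against 0.324 and 0.0488, a log2 fold change of 6.01 ± 0.94. IL34, a cytokine that binds the CSF1 receptor (chromosome 16, 70579895 to 70660682), faces MTSS1L across 521 bases and measured 7.77 and 4.21 against 0.0926 and 0.0976 (5.92 ± 0.91). On its sense strand IL34 measured 79.9 and 19.1 against 9.28 and 8.78 CPM, and BNIPL and ISM2 also had both hypertonic libraries above both isotonic ones there. The other 6 of the 9 held at most 0.245 CPM of sense reads in any library.

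TTC24 (chromosome 1, 156579727 to 156586770), which faces GPATCH4 with another gene between the ends, held 4.49 and 2.58 CPM antisense in the hypertonic libraries and 0.0231 and 0 in the isotonic ones. From 1 isotonic read, the ratio was 221 with a counting interval of 39.3 to 8801. The pseudogene AC098799.2 (chromosome 4, 68300325 to 68302459) faces YTHDC1, a nuclear reader of methylated RNA, likewise with a gene between, and measured 1.82 and 2.86 against 0 and 0, at least 50.2-fold higher. The long noncoding RNA gene AP001266.2 (chromosome 11, 65745729 to 65771585) faces AP5B1, an adaptor subunit of late endosomes. It measured 3.47 and 6.23 against 0.0463 and 0.146, a log2 fold change of 5.74 ± 0.99. These 9 regions were picked by their p in the same 4 libraries, so the gap between their groups is a description and supports nothing further.

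**Figure D2:**
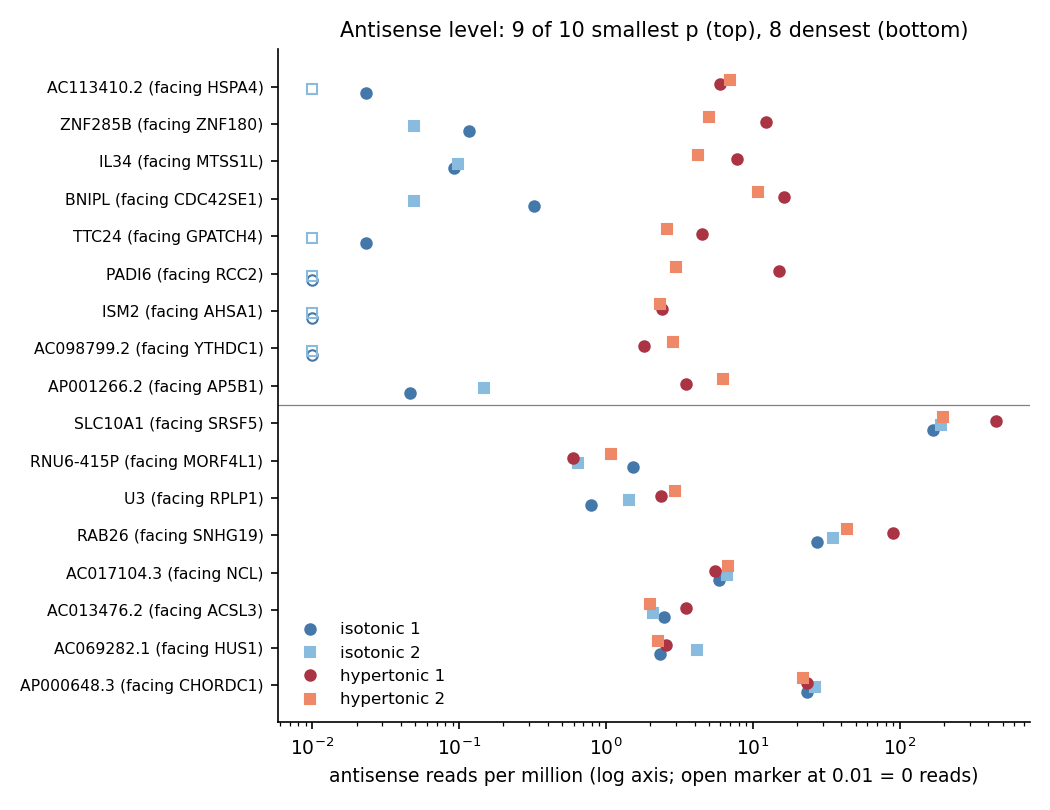
Antisense CPM (log axis) in each library for 9 of the 10 regions with the smallest p-values (above the line) and the 8 with the highest mean density (below it); open markers at 0.01 stand for 0 reads. In the upper 9 the hypertonic libraries lie far to the right of the isotonic ones, and in the lower 8 the groups are close or overlap.

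The 8 regions with the densest antisense reads, by contrast, had much of that signal in isotonic medium. SLC10A1, the bile acid transporter of hepatocytes (chromosome 14, 69775417 to 69797289), faces the splicing factor gene SRSF5 across 3412 bases. Its antisense strand measured 448 and 196 CPM in the hypertonic libraries and 168 and 189 in the isotonic ones. Its sense strand stayed at or below 0.0976 in every library. The antisense log2 fold change was 0.85 ± 0.48 (edgeR, adjusted p = 0.400) and, with factors from the antisense entries, -0.50. RAB26, a small GTPase of secretory vesicles (chromosome 16, 2148144 to 2154165), faces the snoRNA host gene SNHG19. It measured 89.9 and 43.9 against 27.1 and 35.2, a log2 fold change of 1.10 ± 0.51 (adjusted p = 0.296), which was -0.23 with factors from the antisense entries. The groups did not overlap for either gene, but hypertonic library 2 was close to the isotonic range.

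AC017104.3, which faces NCL, the gene of the nucleolar protein nucleolin, measured 5.47 and 6.74 against 5.88 and 6.64 CPM. Its log2 fold change was -0.03 ± 0.61, and 0.16 under total-count scaling. AP000648.3, which faces the HSP90 cochaperone gene CHORDC1, measured 23.2 and 21.9 against 23.2 and 26.5 (-0.14 ± 0.51, and 0.024 under total-count scaling). For both genes the groups overlapped or differed by less than the standard error. The short U3 snoRNA copy facing RPLP1, a ribosomal stalk protein gene, measured 2.38 and 2.94 against 0.790 and 1.43, without overlap. AC013476.2 beside ACSL3 measured 3.48 and 2.00 against 2.48 and 2.09, AC069282.1 beside HUS1 measured 2.54 and 2.26 against 2.31 and 4.14, and RNU6-415P beside MORF4L1 measured 0.599 and 1.08 against 1.52 and 0.640. These last 3 overlapped between groups, and none of the 8 passed the test.

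A ratio formed within each library does not depend on how libraries are scaled. The antisense density of a region divided by the sense density of its partner had a median of 0.475 and 0.264 in hypertonic libraries 1 and 2 and of 0.0712 and 0.0862 in isotonic libraries 1 and 2. The log2 ratio of the group means was 2.23. The isotonic libraries were close to each other, and both hypertonic libraries lay several fold above them. Of 1156 regions with a ratio in every library, 847 (73.3%) had both hypertonic ratios above both isotonic ones and 6 had both below. No such ratio was formed for other genes, so this count has no background share beside it. By antisense level alone, both hypertonic libraries lay above in 62.0% of all antisense entries tested. The antisense density exceeded the partner's own density in 291 and 99 regions in the hypertonic libraries and in 30 and 44 in the isotonic ones. The partner's isotonic level entered both this ratio and the choice of regions, so the ratio is a description. Partner sense entries had a median log2 fold change of -0.24 over 1067 tested. With partners chosen on the mean of all 4 libraries the log2 ratio was 2.32.

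The ratio differed between short and long gaps mainly in the isotonic libraries. For ends up to 1 kb apart its median was 0.480 and 0.308 in the hypertonic and 0.139 and 0.135 in the isotonic libraries. It was no lower at 1 to 2.5 kb in 3 of the 4 libraries, with 0.561 and 0.325 against 0.119 and 0.137, and at 2.5 to 5 kb it was 0.473 and 0.271 against 0.0654 and 0.0687. For ends 5 to 10 kb apart it was 0.449 and 0.190 against 0.0304 and 0.0337. These differences were not tested. The median log2 fold change of the antisense entries was 1.18 over 220 regions up to 1 kb, 1.40 over 181 at 1 to 2.5 kb, 1.67 over 228 at 2.5 to 5 kb and 2.31 over 270 at 5 to 10 kb. Unadjusted p-values under 0.05 were found for 33.6%, 42.0%, 48.2% and 59.3% of these, all higher, next to 34.6% of all antisense entries with a median of 1.37, so the nearest regions lay at or below the values of antisense entries in general. The filter bears on these medians, since 16, 27, 54 and 90 of the regions tested in the 4 classes had an isotonic mean count under 10. With no filter, the share of regions with reads whose hypertonic mean was higher was 87.4%, 91.5%, 91.7% and 92.6%. In the sums, the fold over the isotonic mean was 3.08, 3.18, 3.36 and 5.21 in hypertonic library 1. In library 2 it was 1.85, 1.55, 1.65 and 2.04, with no steady order. Spearman's rho between gap and log2 fold change was 0.29 across the 899 regions, which share libraries and are not independent replicates.

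**Figure D3:**
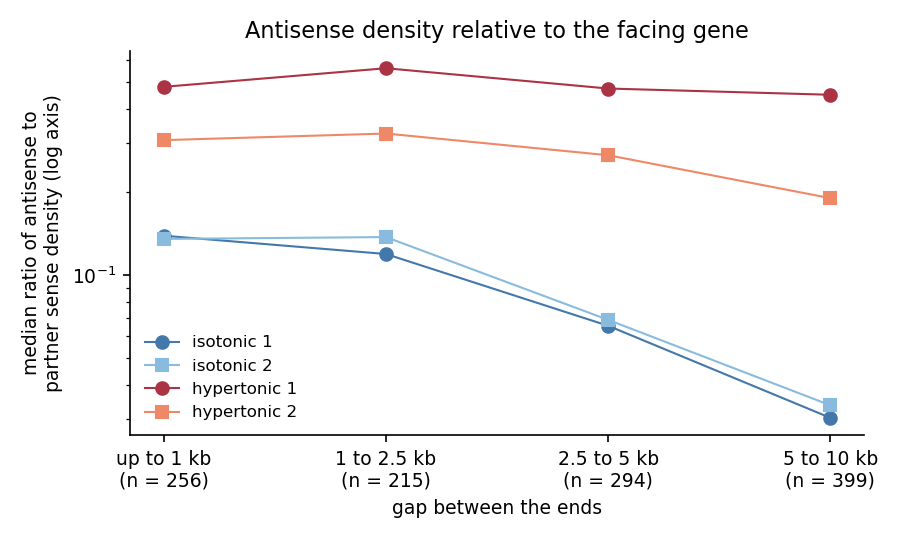
Median ratio of antisense density to the partner's sense density (log axis) by the gap between the 2 ends, with 1 line per library. The isotonic lines drop from 0.139 and 0.135 to 0.0304 and 0.0337. Hypertonic library 1 stays between 0.449 and 0.561, and hypertonic library 2 goes from 0.308 through 0.325 down to 0.190.

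The fold change also differed by length. The median log2 fold change was 1.04 in 325 regions under 5 kb, 1.77 in 304 of 5 to 20 kb, 2.11 in 239 of 20 to 100 kb and 1.99 in 31 over 100 kb. In the first class 25.8% had an unadjusted p under 0.05 and a higher hypertonic level, and in the third 64.0%. In the sums, the fold over the isotonic mean was 2.16, 3.15, 3.93 and 4.68 in hypertonic library 1 from the shortest class to the longest, and 1.81, 1.99, 1.59 and 1.61 in library 2, so only library 1 showed an order by length. Short regions hold fewer reads, and of 571 under 5 kb only 325 had enough to be tested. In the 31 regions over 100 kb the summed density was 0.247 and 0.0851 in the hypertonic and 0.0546 and 0.0509 in the isotonic libraries, and all 31 had a positive fold change. Among 621 tested protein-coding regions the median was 1.79, among 149 long noncoding RNA genes 1.37 and among 121 pseudogenes 0.81.

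The median log2 fold change of tested regions showed no steady order by the partner's level, which the rule also used, while the fold in the sums decreased. The median log2 fold change was 1.67 for partners of 0.5 to 1 RPKM (327 regions), 1.61 for 1 to 3 RPKM (431), 1.41 for 3 to 10 RPKM (118) and 2.29 for at least 10 RPKM (23). The summed antisense density itself increased with the partner's level, from 0.302 and 0.159 at 0.5 to 1 RPKM to 1.59 and 0.911 at 10 RPKM or more in the hypertonic libraries. In the isotonic libraries it increased from 0.0736 and 0.0865 to 0.550 and 0.627. Each class showed higher density in both hypertonic libraries than in either isotonic one. From the lowest partner class to the highest, the summed fold over the isotonic mean was 3.77, 3.76, 3.13 and 2.71 in hypertonic library 1. In library 2 it was 1.98, 1.73, 1.64 and 1.55. These differences were not tested. The 6 regions with the most active partners included SNRPGP19, 7886 bases from the noncoding RNA gene MALAT1, with 0.204 and 0.0912 CPM against 0 and 0. Histone genes HIST1H3C, HIST1H4A and HIST1H3A, whose histone partners end in a stem-loop rather than a poly(A) tail, held at most 0.185 CPM antisense in any library. These regions are only 411, 312 and 411 bases long and had too few reads to be tested. Per kb they held 0.199 and 0.265, 0.131 and 0.594, and 0.0993 and 0.322 CPM in the hypertonic libraries. In the isotonic libraries they held 0.102 and 0, 0.188 and 0, and 0 and 0.119. The median density per region was 0.510 and 0.384 against 0.111 and 0.121. PRSS12, a serine protease gene facing the snoRNA host SNHG8 across 214 bases, measured 153 and 71.0 against 72.3 and 83.3, with hypertonic library 2 below both isotonic ones.

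**Figure D4:**
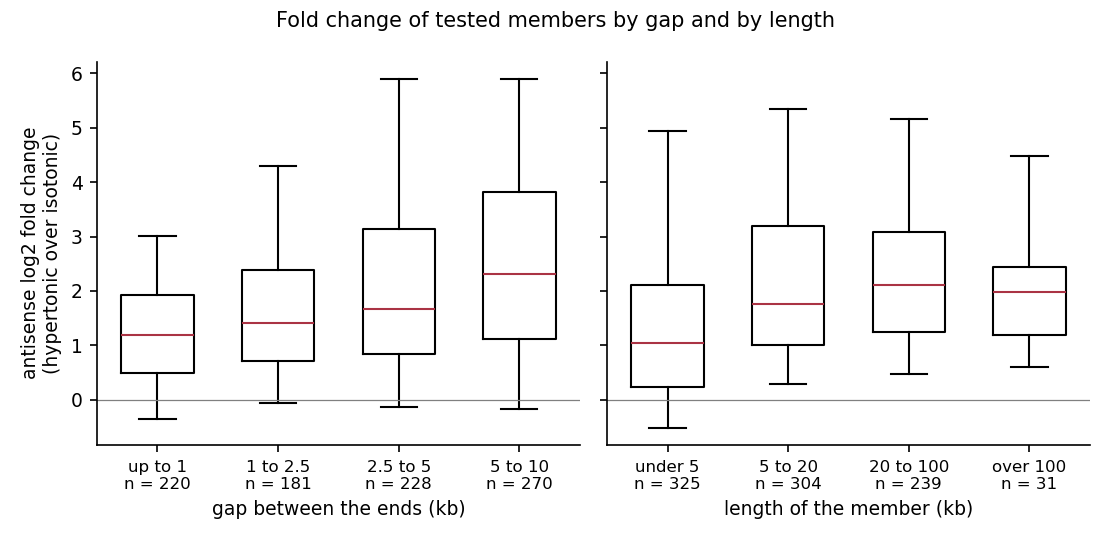
Log2 fold change of the antisense entries of the 899 tested regions by gap (left) and by length (right); boxes span the quartiles with the median in red, and whiskers reach the 5th and 95th percentiles. The median increases from 1.18 to 2.31 over the gap classes and is lowest, at 1.04, in regions under 5 kb.

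The sense strands of the same genes did not share this shift under factors from the sense entries. Those factors centre sense entries near 0 by construction. With factors from the antisense entries the median over all sense entries tested was -1.18. Of the 579 regions whose own sense entry was tested, 33 were higher and 16 lower at an unadjusted p under 0.05, next to 8.76% and 1.70% of all sense entries, and the median log2 fold change was -0.05. Where both strands were tested, the antisense fold change was above the sense one in 494 of 546 genes, by a median of 1.78 on the log2 scale. Antisense density exceeded the gene's own sense density in 777 and 682 regions in the hypertonic and in 543 and 549 in the isotonic libraries. In the 63 reciprocal pairs both genes are active and the antisense strand of each lies beyond the end of the other. Of the 53 pairs with both antisense entries tested, 48 had 2 positive fold changes. In 26 pairs both antisense entries had the hypertonic libraries above the isotonic ones, in 22 pairs 1 did, and in 5 pairs 0 did. Single entries did so in 70.3% of all regions tested and 62.0% of all antisense entries tested.

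Reads assigned to the wrong strand would also appear as antisense, and the library protocol applies strand marking to certain samples without naming them. In 237 expressed non-overlapping genes with no opposite-strand gene within 50 kb, antisense reads were 0.434% and 0.412% of sense reads in the hypertonic and 0.211% and 0.260% in the isotonic libraries. Those are pooled values. The median over the 237 genes was 0.045% and 0.118% in hypertonic libraries 1 and 2 and 0.030% and 0.032% in the isotonic ones, highest in hypertonic library 2. In the regions described here antisense reads were 78.1% and 37.4% of the genes' own sense reads in the hypertonic and 18.2% and 17.8% in the isotonic libraries. Among the 600 regions whose own sense strand had a mean RPKM under 0.1, the summed antisense density was 0.593 and 0.300 against 0.162 and 0.172, a 2.67-fold difference. It was 2.61-fold for the 321 regions with an own sense RPKM of at least 0.5.

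At other non-overlapping genes the summed antisense density was also higher in both hypertonic libraries, except in genes facing inactive ends. In every library it was lower than in the regions. In 1602 genes no facing end lay within 10 kb and the nearest active end lay 10 to 50 kb away. Their summed density was 0.257 and 0.0677 against 0.0458 and 0.0459 CPM per kb. Another 3879 genes faced an inactive but no active end within 10 kb, and some of them also had an active end 10 to 50 kb away. Their density was 0.0597 and 0.0307 against 0.0201 and 0.0352, with overlapping groups. A further 16460 genes had no facing end within 10 kb and no active end within 50 kb. Their density was 0.0142 and 0.0105 against 0.00755 and 0.00873. The median log2 fold changes of tested entries were 2.46 over 478, 2.00 over 619 and 0.91 over 962 genes, next to 1.60 in the 899 regions, and 56.5%, 48.8% and 18.2% had an unadjusted p under 0.05 with a higher hypertonic level. A smaller share of these classes passed the count filter, and 201, 274 and 260 of the genes tested in them had an isotonic mean count under 10. With no filter, the hypertonic mean was higher in 91.4%, 84.5% and 74.1% of the genes with reads, next to 91.0% of the regions. These differences between classes were not tested. By distance to the nearest active end alone, genes that faced a nearer inactive end were included. The density was then 0.424 and 0.112 against 0.0725 and 0.0709 in 630 genes at 10 to 20 kb. In 1423 genes at 20 to 50 kb it was 0.128 and 0.0392 against 0.0227 and 0.0242.

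**Figure D5:**
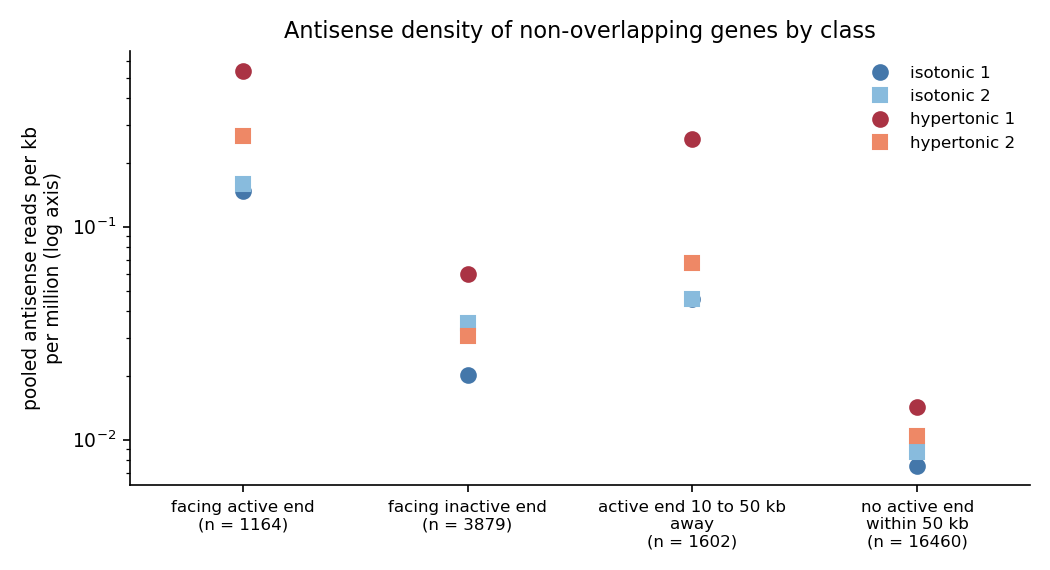
Summed antisense CPM per kb (log axis) in each library for non-overlapping genes grouped by the nearest facing end, with the number of genes under each class. The 1164 genes that face an active end within 10 kb lie between 0.148 and 0.541. Those with no facing end within 10 kb and no active end within 50 kb lie between 0.00755 and 0.0142.

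The regions next to each threshold of the rule are given as description. Just inside the partner threshold lay FBXO33 beside CTAGE5 (0.50 RPKM), with 24.7 and 4.43 CPM antisense against 7.12 and 4.26, AC108134.4 beside ZNF213-AS1 (0.969 and 0.401 against 0.0463 and 0.293) and OR7E23P beside SYNJ1 (0.515 and 0.363 against 0.0694 and 0.0976). Just outside lay TBC1D13 beside SPOUT1, with 2.16 and 0.0363 against 0.231 and 0.0488, AC010618.1 beside COLGALT1, with 0.204 and 0.0855 against 0 and 0, and ABBA01031674.1, with 0.0408 and 0.186 against 0 and 0.195. At the distance limit, TAS2R42 (gap 9976 bases) held 0.727 and 0.0727 against 0.161 and 0.0412, and RNU6-927P (9992 bases) 0 and 0.0235 against 0 and 0. Beyond it, AP003072.4 (10006 bases) held 0.851 and 0.188 against 0.639 and 0.495, and RNA5SP67 (10013 bases) 0.576 and 0.0577 against 0.285 and 0.

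Of 30 genes of cleavage, polyadenylation and termination, all tested on their sense strand, 0 passed after adjustment, 0 were higher and 3 lower at an unadjusted p under 0.05, next to 8.76% and 1.70% of all sense entries, with a median log2 fold change of -0.39 next to 0.05 over sense entries. The 3 were the cleavage factor I subunits CPSF6 (-1.21 ± 0.44) and CPSF7 (-1.06 ± 0.41) and WDR82, a partner of the PNUTS phosphatase complex that acts in termination (-1.05 ± 0.45). Of the 30, 8 had a positive fold change, with PPP1R10, the PNUTS subunit itself, at 0.88 ± 0.54 and the polyadenylation factor FIP1L1 at 0.67 ± 0.62. The libraries held 23048409 to 44888307 reads, and antisense entries took 8.60% and 6.03% of gene reads in the hypertonic and 3.17% and 3.36% in the isotonic libraries. Of 7 mesenchymal and osteoblast markers, RUNX2, SPARC, COL1A1 and VIM exceeded 1 CPM in every library and COL1A2, ALPL and TWIST1 in none, with summed levels of 440 to 874. Of 7 markers of other cell types, PTPRC and EPCAM exceeded it in every library, while CD3E and ALB were at 0 in all, with summed levels of 6.69 to 16.2. The part of these levels in the results was not tested.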

How the data were processed

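Bru-seq of 2 hypertonic and 2 isotonic libraries was analysed. Tools listed in the submitters' processing notes, without roles, are STAR 2.5.3a, bedtools 2.16.2, CASAVA 1.8.2 and Bowtie2 2.3.3, with the build GRCh38. No source used here names the annotation release. The authors deposited an expected count and an RPKM per gene and strand, in tables without a header (105538 entries). Strand and type came from GENCODE 29 by Ensembl identifier for 57429 genes; another 259 had no match and were not used. A gene's end came from its deposited entry, or from GENCODE where a same-strand gene overlaps it. Of 1164 regions, 977 spanned as in GENCODE 29, 174 had another gene between the ends, and 317 faced a partner with a same-strand overlap.

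Expected counts were rounded and all entries with a mean of at least 10 were tested together with edgeR 4.0.16 (R 4.3.3): TMM factors of 0.893, 1.24, 0.998 and 0.906 from sense entries, a quasi-likelihood fit, and p-values adjusted by Benjamini-Hochberg with a threshold of 0.05. DESeq2 1.42.0 and limma 3.58.1 were alternatives. The SE of a log2 fold change is its size over the square root of F. The tests were tested on simulated data. Regions named are the 10 with the smallest p (1 is not reported here), the 8 densest, the 6 with the most active partners, and those next to each threshold. The regions and gene lists were chosen with earlier results of these data known. Reads carry no molecular identifiers.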

Additional observations from a re-analysis of the deposited data

How the results depend on the processing

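The median stayed positive under the alternatives run for it, between 0.32 and 1.83, and so did the log2 ratio of summed density under the scaling, leave-one-out and region-choice alternatives, the ones run for it. Factors from the antisense entries, which by construction centre most antisense entries near 0, moved the median to 0.32, the log2 ratio of summed density to 0.063 (within the SD of 0.72 between the hypertonic libraries), regions above in both hypertonic libraries to 330 and regions with an unadjusted p under 0.05 to 179, with 15 adjusted calls. Those factors gave 62 higher and 1019 lower adjusted calls over all 31889 entries. For the 330 and 179 no share over other entries was computed. Adjusted calls of regions numbered 252 of 1143 without a filter and 269 of 899 in DESeq2, all higher. Over all entries these settings called 2915 of 64424 and 2728 of 31889 higher. With antisense entries alone 217 of 899 regions were called, all higher, next to 1452 of 10194 entries. With the replicate block 196 of 899 were called, all higher, next to 1678 of 31889 entries called higher. The replicate numbers do not pair the libraries by the labels (correlation of deviations 0.01 over 31889 entries), so the block is only a setting. Leaving out 1 library gave 0 to 467 adjusted calls (4 of the 467 lower), 195 to 543 regions with an unadjusted p under 0.05, medians of 1.22 to 1.82, log2 ratios of summed density of 0.84 to 1.82 and of the antisense-to-partner ratio of 1.74 to 2.59. A gap of at most 5 kb left 765 regions, and 260 of the 629 tested were higher at an unadjusted p under 0.05. A partner RPKM of at least 1 left 720, with 279 of 583 tested higher at such a p, and 407 above. Next to these, 34.6% of all antisense entries and 17.0% of all entries were higher at such a p. The shares above were 62.0% and 34.9%. Partners chosen on 1 isotonic library, with the fit run without it, gave 198 and 219.

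Single regions also turned direction. With factors from the antisense entries SLC10A1 stood at -0.50, RAB26 at -0.23, AC013476.2 at -1.06, PRSS12 at -0.82 and FBXO33 at -0.12. AC017104.3 stood at 0.16 by total count and 0.15 by upper quartile, and AP000648.3 at 0.024 and 0.046. Leaving out 1 library gave -0.19 to 0.15 for AC017104.3, -0.85 to 0.42 for RNU6-415P, -0.16 to 0.60 for AC013476.2, -0.80 to 0.034 for AC069282.1, -0.10 to 0.98 for PRSS12 and -0.33 to 2.11 for FBXO33. The cause was not tested.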
